A study of Homo sapiens with 9 samples.

Results

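FABP4 and 9 further genes of fatty acid handling were followed in MDA-MB-231 cells depleted of AHR, the gene of the aryl hydrocarbon receptor (AhR). The set holds 4 fatty acid binding proteins (FABP3, FABP4, FABP5 and FABP6), the 3 PPAR nuclear receptors (PPARG, PPARA and PPARD), the fatty acid translocase CD36, the lipid droplet coat protein PLIN2 and the triglyceride lipase PNPLA2. These 10 genes were picked by symbol from the 60649 genes listed, and the set was chosen because FABP4 rose with both hairpins. The rise of FABP4 against the control is therefore a description with no test. All 10 genes were found in the count table. Of these, 8 were among the 14274 genes that passed the filter on low counts and were tested, whereas FABP3 and CD36 were under it, and FABP4 passed only through the groups in which it was high. FABP6 passed only with the shAHR#3 libraries included, in which its mean level was highest.

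MDA-MB-231 is an established human cell line of triple-negative breast cancer, the subtype that lacks estrogen and progesterone receptors and HER2 amplification. RNA-seq was performed on 3 groups of 3 replicates. All cells had been transduced with a lentiviral vector, which was either pLKO-GFP, the control that targets no human gene, or a short hairpin RNA (shRNA) against AHR, labelled shAHR#2 or shAHR#3. Transduced cells were selected with puromycin and the surviving cells were pooled, so no group is a single clone. The labels name no ligand or inhibitor for these 9 libraries and give their treatment as proliferation. The labels do not say whether replicates were separate transductions or cultures, and the p-values then measure only the spread between these libraries, which may be technical.

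Fatty acid binding proteins are small cytosolic carriers that shuttle long-chain fatty acids to membranes, to lipid droplets and to the nucleus. There, PPAR receptors pair with RXR receptors, bind tandem copies of the hexamer AGGTCA and are switched by fatty acids and their derivatives. FABP4 is best known as the carrier of adipocytes, macrophages and some endothelial cells and is a classical target of PPARG, and FABP5 is the epidermal carrier found in many carcinomas. CD36 takes up fatty acids at the plasma membrane, PLIN2 coats the droplets in which they are stored, and PNPLA2 (ATGL) begins their release from those droplets.

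The control libraries held 17407688 to 19509030 counts, those of shAHR#2 held 15991396 to 19112459 and those of shAHR#3 held 19436825 to 20374460. Levels are given as CPM, that is, counts relative to the size of the library, after library sizes were scaled by the TMM method. AHR itself was at 114, 118 and 121 CPM in the control libraries, at 42.5, 40.4 and 41.9 CPM with shAHR#2 and at 46.3, 52.1 and 44.5 CPM with shAHR#3. The groups did not overlap, and shAHR#3 left slightly more AHR than shAHR#2 (log2 difference 0.19, standard error 0.05, edgeR quasi-likelihood test with Benjamini-Hochberg adjustment, adjusted p = 0.00283). Genes that mark this line were present, among them VIM, CD44, AXL, KRT8 and KRT18, while ESR1 had at most 4 reads in a library and PGR had none. Not all genes chosen as low or absent were near 0. GATA3 had 162 to 227 reads in a library. CDH1 had an average log2 CPM of 1.29 and rose with both hairpins (mean log2 fold change 1.60). Of the 12 genes of this check, 9 passed the filter. The levels of EPCAM, ERBB2 and KRT5, also chosen as low or absent, are not given here.

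FABP4 (ENSG00000170323.9) lies on the minus strand of chromosome 8 at 81478419 to 81483236 (GRCh38). It was counted at 1, 0 and 1 read in the pLKO-GFP libraries, at 136, 115 and 110 reads with shAHR#2 and at 381, 397 and 356 reads with shAHR#3. All 6 AHR-depleted libraries were far above all 3 controls, and every shAHR#3 library was above every shAHR#2 library. Mean levels were 0.0357 ± 0.0311 CPM for pLKO-GFP, 7.21 ± 0.224 CPM for shAHR#2 and 19.1 ± 1.53 CPM for shAHR#3 (SD, 3 libraries each). Because the control libraries were at or under the floor of 3 counts per library (0.157 CPM), the rise can only be bounded. It was at least 45.9-fold with shAHR#2, and with shAHR#3 FABP4 was at least 122-fold higher. The floor allows for counting error and not for copies made by PCR, which these reads do not mark.

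The choice of the set did not use the difference between the hairpins, and this was tested. FABP4 was 2.64-fold higher with shAHR#3 than with shAHR#2 (log2 difference 1.40, standard error 0.10, 95% interval 1.19 to 1.61, edgeR adjusted p = 4.16e-14). AHR was also higher with shAHR#3, by 1.14-fold, so the group with more residual AHR had more FABP4. The part of residual AHR in this difference was not tested.

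**Figure D1:**
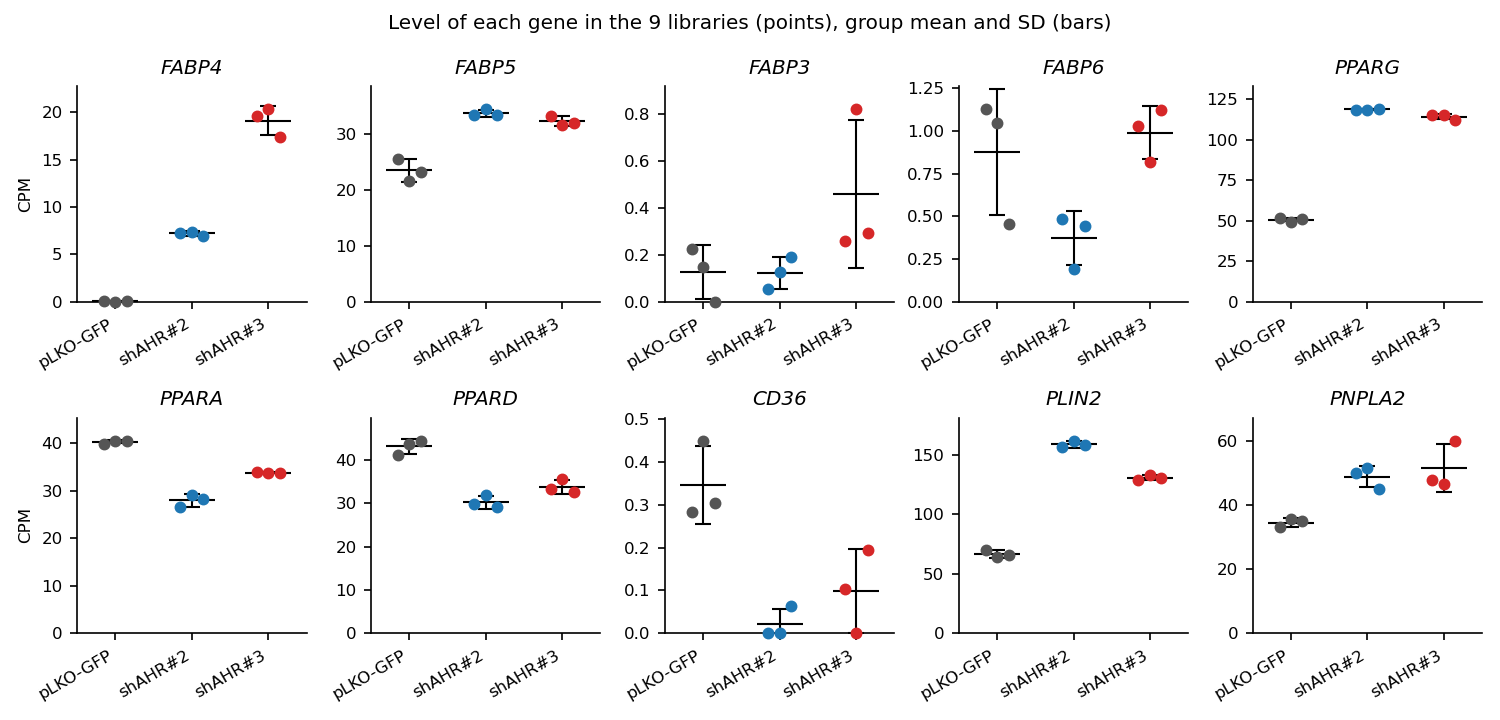
Level of each of the 10 genes (CPM, linear axes from 0, a separate scale per gene) in the 9 libraries. Points are libraries, long bars the mean and short bars the SD of 3 libraries. FABP4 sits near 0 with pLKO-GFP and at means of 7.21 and 19.1 CPM with shAHR#2 and shAHR#3, while PPARG and PLIN2 rise from levels already well above 0, and PPARA and PPARD are lower in both AHR-depleted groups.

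FABP4 is an adipocyte, macrophage and endothelial gene in normal tissue, and markers of these cell types were therefore counted in the same libraries. In bulk RNA, a change in the share of a cell type and a change in RNA per cell cannot be told apart. Of 10 adipocyte markers in the table, 3 passed the filter. ADIPOQ, LEP and TRARG1, which are defining genes of adipocytes, had no read in any of the 9 libraries. The summed level of the adipocyte list was 2.26 to 4.05 CPM in the control, 3.29 to 3.81 CPM with shAHR#2 and 8.03 to 8.39 CPM with shAHR#3.

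Most of the difference in that sum was PLIN4, a droplet coat protein of adipocytes, which was singled out after its values were seen. It had 0, 2 and 3 reads in the control libraries, 18, 19 and 9 with shAHR#2 and 71, 81 and 91 with shAHR#3. PLIN4 was thus ordered as FABP4 was. With shAHR#2 it was at least 5.85-fold higher, and with shAHR#3 the bound was at least 26.0-fold higher. The difference between the hairpins was 2.14 on the log2 scale (standard error 0.26). It is a description with no test, because PLIN4 was picked by its values and passed the filter only through the groups in which it was high. LPL, the lipoprotein lipase, was not called with shAHR#2 (log2 fold change -0.38, edgeR adjusted p = 0.175) and was higher with shAHR#3 (0.53, edgeR adjusted p = 0.0366). CFD, the other marker that passed the filter, was called with neither hairpin (1.03 and 0.23, edgeR adjusted p = 0.0654 and 0.744). PLIN1, the major droplet protein of adipocytes, had at most 8 reads in any library.

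Of 12 macrophage markers, 4 passed the filter. C1QA, C1QB, CD163, MARCO and TYROBP had no read in any library. PTPRC, the leukocyte phosphatase CD45, nonetheless had 1 to 4 reads in a control library, 14 to 33 in a shAHR#2 library and 14 to 30 in a shAHR#3 library, and the lysozyme gene LYZ rose with both hairpins (log2 fold changes 2.46 and 1.67, edgeR adjusted p = 2.75e-09 and 2.43e-05). The other tested markers did not follow. CD14 and CSF1R fell with shAHR#2 (-1.40 and -0.78, edgeR adjusted p = 0.00348 and 0.00316) and were not called with shAHR#3 (adjusted p = 0.170 and 0.540), and MRC1 had 5 or 6 reads per control library, none with shAHR#2 and 6, 1 and 0 with shAHR#3. The summed macrophage list was at 4.30 to 5.67 CPM in the control, 5.76 to 7.40 CPM with shAHR#2 and 6.45 to 7.00 CPM with shAHR#3.

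Of 12 endothelial markers, 5 passed the filter. PECAM1, the adhesion molecule CD31, rose with both hairpins (2.22 and 2.35, edgeR adjusted p = 6.99e-17 and 1.20e-17), as did the secreted factor EGFL7 and the junction protein ESAM. KDR, the main VEGF receptor, fell (-2.75 and -3.62, edgeR adjusted p = 5.43e-11 and 6.52e-13), and CLDN5 had no read. ROBO4 was not called with shAHR#2 (0.17, edgeR adjusted p = 0.112) and fell with shAHR#3 (-0.40, edgeR adjusted p = 0.000956). Under the filter, VWF had no read in the control, 4 to 7 reads with shAHR#2 and 4 to 9 with shAHR#3, and CDH5 had no read in the control, 2, 0 and 0 with shAHR#2 and 1, 7 and 12 with shAHR#3. The summed endothelial list was at 92.8 to 102 CPM in control libraries, 192 to 208 CPM in those of shAHR#2 and 145 to 159 CPM in those of shAHR#3, and mostly reflected ESAM (means 68.2, 143.7 and 112.4 CPM). The part of other cell types in the FABP4 signal was not tested beyond these values.

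FABP5 (chromosome 8, 81280536 to 81284777, plus strand) was present before AHR depletion and rose moderately. It was at 25.6, 21.7 and 23.3 CPM with pLKO-GFP, at 33.4, 34.6 and 33.5 CPM with shAHR#2 and at 33.4, 31.7 and 32.1 CPM with shAHR#3. No AHR-depleted library overlapped the control, and the AHR-depleted groups overlapped each other. The rise was 1.44-fold with shAHR#2 (log2 fold change 0.52, standard error 0.07, edgeR adjusted p = 1.10e-08) and 1.38-fold with shAHR#3 (0.46, standard error 0.07, edgeR adjusted p = 1.71e-07). Between the hairpins no difference passed the threshold (-0.06, 95% interval -0.19 to 0.07, edgeR adjusted p = 0.466). FABP5 has many near-identical processed pseudogenes, and reads could be split among them. Of 19 FABP pseudogenes sought, 18 were in the table, 14 of these had no read, and together they did not exceed 0.569 CPM in a library.

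FABP6, the ileal carrier of bile acids, was close to the detection limit, with 20, 21 and 9 reads in the control libraries, 9, 3 and 7 with shAHR#2 and 20, 16 and 23 with shAHR#3. The libraries of both hairpins overlapped the control. The fall with shAHR#2 passed the threshold (log2 fold change -1.19, standard error 0.44, edgeR adjusted p = 0.0181), but no longer without pLKO-GFP replicate 1 (-0.98, adjusted p = 0.0887), without pLKO-GFP replicate 2 (-1.03, adjusted p = 0.0769) or without shAHR#2 replicate 2 (-0.90, adjusted p = 0.102). With shAHR#3 the value was 0.18 (95% interval -0.53 to 0.90, edgeR adjusted p = 0.684). FABP6 lies on chromosome 5, whose 656 tested genes had a median log2 fold change of -0.48 with shAHR#2 and -0.26 with shAHR#3. The part of that shift in the FABP6 value was not tested.

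FABP3, the carrier of heart and skeletal muscle, had 4, 3 and 0 reads in the control libraries, 1, 2 and 3 with shAHR#2 and 5, 16 and 6 with shAHR#3. Its shAHR#3 libraries lay above the controls, with 16 reads in replicate 2. In a fit without the filter, the difference of shAHR#3 from the control had an edgeR adjusted p of 0.0397, which became 0.485 without shAHR#3 replicate 2 and ranged from 0.0242 to 0.485 over the 9 libraries left out in turn. The 6 other genes of the family, FABP1, FABP2, FABP7, PMP2, FABP9 and FABP12, had no read in any library. Among the related retinoid binding proteins, CRABP2 alone passed the filter and was called against the control with neither hairpin (0.31 and -0.30, edgeR adjusted p = 0.0523 and 0.0752). It was lower with shAHR#3 than with shAHR#2 (-0.61, edgeR adjusted p = 0.000622).

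FABP4 and FABP5 lie in a cluster of FABP genes, with FABP5 at -202.7 kb, PMP2 at -35.8 kb, FABP9 at -21.7 kb and FABP12 at 106.9 kb from start to start, counted from FABP4 toward higher coordinates. PMP2, FABP9 and FABP12 had no read, so the rise of FABP4 was not shared by its nearest neighbours in the cluster. The next expressed gene on the FABP12 side, IMPA1 (inositol monophosphatase, 203.1 kb away), fell by 0.48 with shAHR#2 and by 0.19 with shAHR#3 on the log2 scale (edgeR adjusted p = 6.91e-11 and 0.000871). CHMP4C, an ESCRT component 249.2 kb away, rose by 0.96 and 0.47 (edgeR adjusted p = 2.09e-07 and 0.00652).

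Of 14 tested genes of the wider neighbourhood, FABP5 included and FABP4 left out, 8 were higher and 4 lower with shAHR#2 (32.6% and 33.2% of all genes tested), and 5 were higher and 3 lower with shAHR#3 (26.9% and 27.5%). The adaptor PAG1 fell with both hairpins (-0.34 and -0.17), as did the transcription factor E2F5 (-1.33 and -1.08). ZNF704 (0.63 and 0.90), the carbonic anhydrase CA2 (0.89 and 0.77) and the Notch target HEY1 (1.55 and 1.31) rose with both. MRPS28, TPD52 and ZFAND1 were called higher and ZBTB10 lower with shAHR#2 but not with shAHR#3, and each of these differed between the hairpins by the direct test (edgeR adjusted p from 6.95e-07 to 0.0153). SLC10A5 and SNX16 were called with neither. Over the 499 tested genes of chromosome 8 the median log2 fold changes were 0.10 and 0.08.

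**Figure D2:**
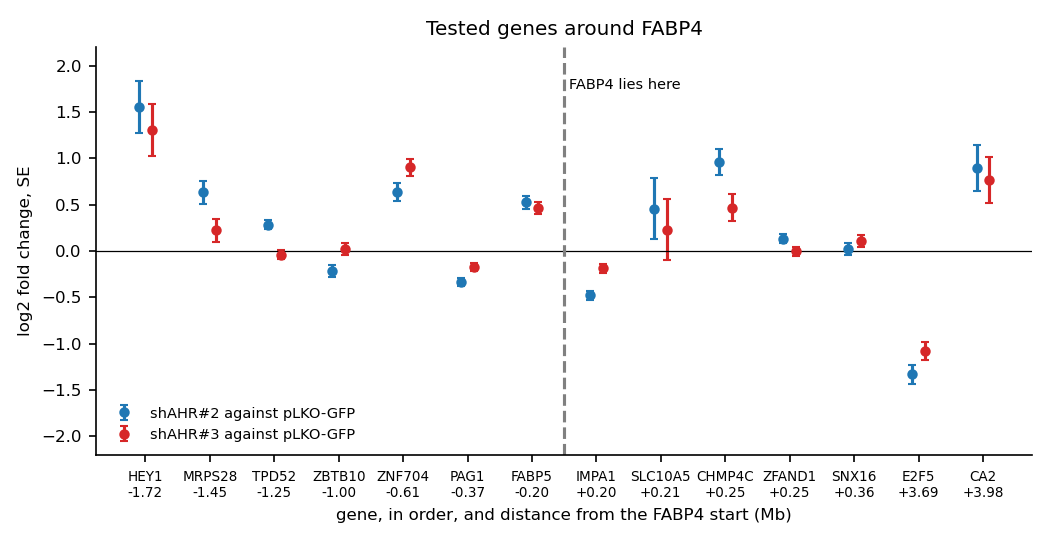
Log2 fold change against pLKO-GFP (bars, standard error) of the 14 tested genes around FABP4, ordered along the chromosome with the distance of each start from the FABP4 start in Mb. The dashed line marks FABP4, which is not plotted. IMPA1, the nearest expressed gene on one side, is below 0 with both hairpins, and FABP5 on the other is above 0 with both.

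PPARG, the receptor that drives adipocyte differentiation and FABP4 transcription in fat, more than doubled. It was at 51.6, 49.4 and 51.0 CPM with pLKO-GFP, at 118.5, 118.5 and 118.8 CPM with shAHR#2 and at 114.9, 115.2 and 112.3 CPM with shAHR#3. The AHR-depleted libraries were tightly grouped and far above the control. PPARG was 2.34-fold higher with shAHR#2 (log2 fold change 1.23, standard error 0.04, edgeR adjusted p = 5.96e-26) and 2.25-fold higher with shAHR#3 (1.17, standard error 0.04, edgeR adjusted p = 4.68e-25). Its levels with the 2 hairpins did not differ past the threshold (-0.06, 95% interval -0.13 to 0.02, edgeR adjusted p = 0.209), and those of FABP4 did. The part of PPARG in the FABP4 levels was not tested.

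PPARA and PPARD moved the other way. PPARA, the receptor that controls fatty acid oxidation in liver, was at 40.0, 40.6 and 40.5 CPM in the control, at 26.6, 29.1 and 28.3 CPM with shAHR#2 and at 33.9, 33.8 and 33.7 CPM with shAHR#3. No library overlapped between the 3 groups. The log2 fold changes were -0.53 (standard error 0.06) with shAHR#2 and -0.26 (standard error 0.06) with shAHR#3 (edgeR adjusted p = 5.34e-10 and 0.000188). The fall was smaller with shAHR#3 by 0.27 (standard error 0.06, edgeR adjusted p = 0.000272).

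PPARD, the most widely expressed of the PPAR receptors in normal tissues, was at 41.2, 43.8 and 44.5 CPM in the control, at 29.8, 31.9 and 29.0 CPM with shAHR#2 and at 33.2, 35.6 and 32.6 CPM with shAHR#3. Both AHR-depleted groups lay below the control. The log2 fold changes were -0.52 and -0.35 (standard error 0.06 each, edgeR adjusted p = 1.49e-09 and 2.18e-06). The difference between the hairpins, 0.16 (standard error 0.06, edgeR adjusted p = 0.0325), did not pass with DESeq2 (adjusted p = 0.0760), nor in edgeR without shAHR#2 replicate 1, shAHR#2 replicate 3 or shAHR#3 replicate 2 (adjusted p = 0.0909, 0.115 and 0.160).

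PLIN2 (chromosome 9, 19108375 to 19149290, minus strand) rose together with PPARG. It was at 69.9, 64.2 and 65.7 CPM in the control, at 156.3, 161.9 and 158.5 CPM with shAHR#2 and at 128.8, 132.8 and 130.4 CPM with shAHR#3. The 3 groups did not overlap, and here shAHR#2 was the highest. The rise was 2.39-fold with shAHR#2 (log2 fold change 1.25, standard error 0.04, edgeR adjusted p = 7.68e-27) and 1.96-fold with shAHR#3 (0.97, standard error 0.04, edgeR adjusted p = 6.42e-23). The difference between the hairpins was -0.28 (standard error 0.03, edgeR adjusted p = 9.53e-09), opposite in direction to that of FABP4.

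PNPLA2, the enzyme that removes the first fatty acid from stored triglyceride, was at 33.2, 35.6 and 35.0 CPM in the control, at 50.1, 51.5 and 45.2 CPM with shAHR#2 and at 48.0, 46.8 and 60.2 CPM with shAHR#3. The AHR-depleted libraries were above the control and overlapped each other. The rise was 1.41-fold and 1.49-fold (log2 fold changes 0.50 and 0.58, standard error 0.07 each, edgeR adjusted p = 7.74e-08 and 3.07e-09), with a difference of 0.08 between the hairpins (95% interval -0.06 to 0.21, edgeR adjusted p = 0.360).

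CD36 was near the detection limit, at 5, 9 and 6 reads in the control libraries, 0, 0 and 1 with shAHR#2 and 2, 0 and 4 with shAHR#3. Every AHR-depleted library was below every control library, in the opposite direction to FABP4. With shAHR#2 it was at least 1.91-fold lower against the floor of 3 counts. In the fit without the filter, the edgeR adjusted p was 0.00456 with shAHR#2 (range 0.00392 to 0.0376 over the 9 libraries left out in turn) and 0.129 with shAHR#3 (range 0.0739 to 0.424).

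Of the 7 tested genes other than FABP4, 7 passed the threshold with shAHR#2, against 65.8% of all genes tested, which limits what that count says. PPARG, FABP5, PLIN2 and PNPLA2 were higher (32.6% of all genes were) and PPARA, PPARD and FABP6 lower (33.2%). With shAHR#3, 6 of the 7 passed, against 54.4% of all genes. The same 4 genes were higher (26.9% of all genes) and PPARA and PPARD lower (27.5%). Of all genes tested, 21.9% were higher and 22.6% lower with both hairpins. The median log2 fold change of the 7 genes was 0.50 with shAHR#2 and 0.46 with shAHR#3, while over all genes tested it was -0.003 and -0.000. Both comparisons share the control libraries.

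In the direct comparison of the hairpins, 5 of 8 tested genes passed, against 42.3% of all genes. FABP4, FABP6, PPARA and PPARD were higher with shAHR#3 (21.9% of all genes) and PLIN2 was lower (20.4%). FABP6 was 1.37 higher on the log2 scale with shAHR#3 (standard error 0.43, edgeR adjusted p = 0.00891), a call that was lost without shAHR#2 replicate 2 (1.09, adjusted p = 0.0637). Because FABP6 passed the filter only with the shAHR#3 libraries, in which it was high, this difference is a description rather than an independent test.

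**Figure D3:**
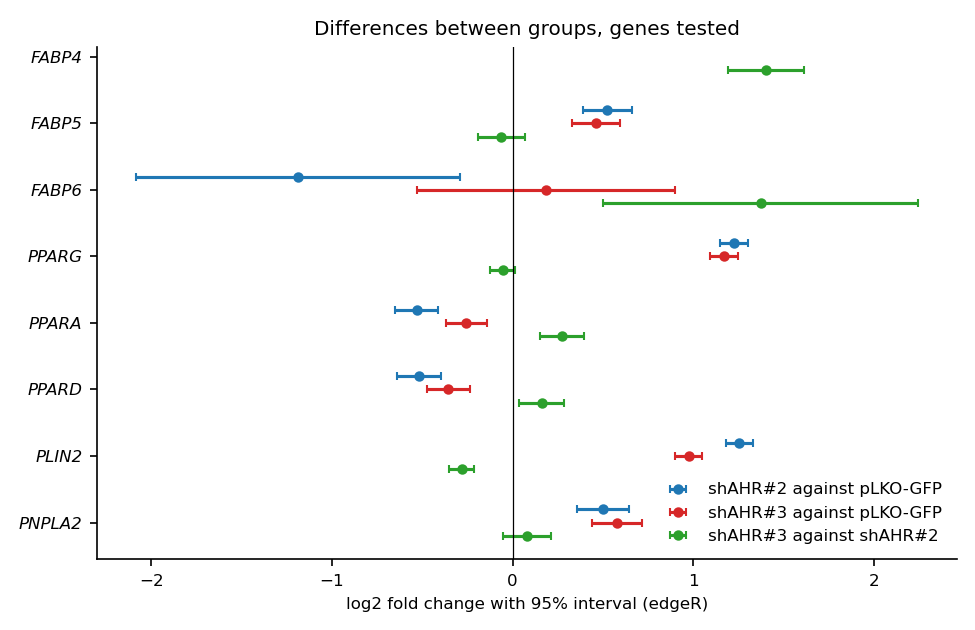
Log2 fold changes of the 8 tested genes in the 3 comparisons, with 95% intervals from edgeR. FABP4 is shown for shAHR#3 against shAHR#2 only, at 1.40, because its change against the control chose the set. PPARG, PLIN2, FABP5 and PNPLA2 lie above 0 and PPARA and PPARD below 0 in both comparisons with pLKO-GFP, and the interval of FABP6 is the widest.

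Levels of different genes were compared per length of transcript, as CPM per kb of the canonical transcript of GENCODE release 44. In the control, PLIN2 (35.1 CPM per kb) and FABP5 (34.8) were highest and overlapped, followed by PPARG (28.6), PNPLA2 (14.3), PPARD (11.6), PPARA (3.99) and FABP6 (1.77). FABP3 (0.114), CD36 (0.0751) and FABP4 (0.0392) came last, and each overlapped the next in this order. At 0 or 1 read, the place of FABP4 among these 3 is not resolved.

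With shAHR#2 the order was PLIN2 (83.8 CPM per kb), PPARG (66.9), FABP5 (50.01), PNPLA2 (20.3), PPARD (8.09), FABP4 (7.92), PPARA (2.77), FABP6 (0.751), FABP3 (0.113) and CD36 (0.00459), and FABP4 overlapped PPARD. With shAHR#3, FABP4 (21.0 CPM per kb) reached the level of PNPLA2 (21.4), which it overlapped, and was below FABP5 (47.9), PPARG (64.3) and PLIN2 (68.9). Per length, FABP4 transcripts therefore remained fewer than those of FABP5 in each group. The place of PPARG depends on the length used: divided by the union of its annotated exons, it was the fifth of the 10 genes in the control and with shAHR#3 and the fourth with shAHR#2. On that scale FABP4 with shAHR#3 (mean 13.95 CPM per kb) was the third by its mean, above PNPLA2 (13.5) and PPARG (9.53), so its place relative to PPARG turns with the length used.

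**Figure D4:**
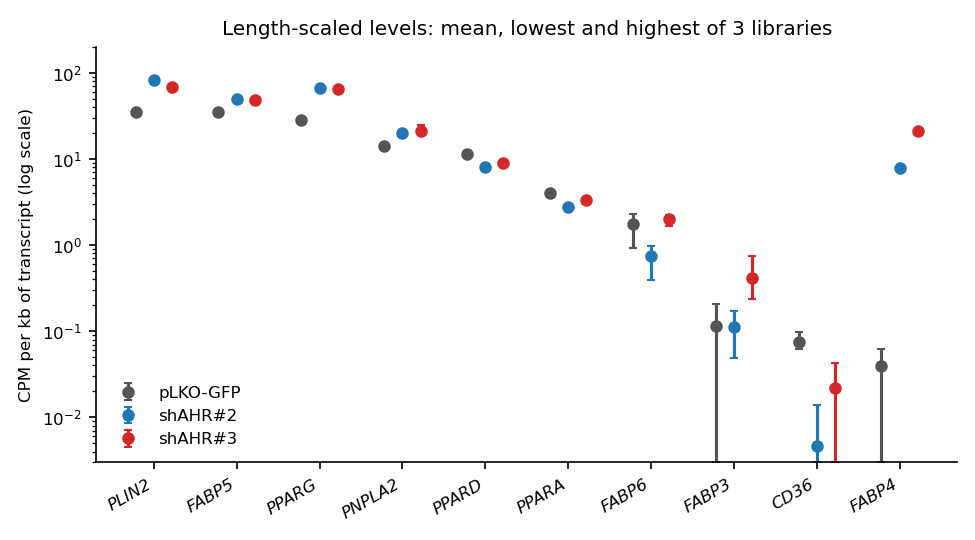
Length-scaled level (CPM per kb of canonical transcript, log axis) of the 10 genes, ordered by their level with pLKO-GFP. Points are means and bars run from the lowest to the highest of 3 libraries, and a bar that reaches the bottom of the axis includes a library with no read. FABP4 overlaps CD36 and FABP3 with pLKO-GFP and comes to 7.92 and 21.0 CPM per kb with shAHR#2 and shAHR#3.

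Promoter sequences of 8 of the 10 genes were at hand in RefSeq (GRCh38.p14, from 250 bases before to 50 bases after each annotated start), all but those of FABP4 and FABP5, and were searched on both strands. GCGTG, the core that AhR and its partner ARNT are known to bind, was found at 1 or more starts of 6 of the 8 genes, namely PPARG (3 of 6 starts), PPARA (1 of 2), PPARD (1 of 1, 4 copies), PLIN2 (1 of 1, 2 copies), FABP3 (1 of 1, 2 copies) and CD36 (1 of 6). It was not found at the starts of FABP6 and PNPLA2. These letters are common, being present in 36.5% of all 35116 promoters and in 40.6% of the 27305 genes at 1 start or more. PPARG and CD36 have 6 starts each, which makes a match at 1 or more of them likelier. The 6 of 8 genes cannot therefore be read against the 40.6%. The hexamer AGGTCA was in 13.8% of promoters, and its direct repeat with a spacer of 1 base, AGGTCANAGGTCA, in 0.0228%, none of them belonging to the 8 genes. A match is a description of the sequence and no measure of binding.

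Stretches before the starts of PPARG and PLIN2, which rose with both hairpins, and of PPARD, which fell with both, are shown because each holds these letters within a short stretch. Each reads 5′ to 3′ along the strand of the gene, and capitals mark GCGTG and AGGTCA.
PPARG, chr3:12287143-12287192, plus strand, from 225 to 176 bases before the first RefSeq start: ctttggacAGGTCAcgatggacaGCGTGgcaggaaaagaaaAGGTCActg
PLIN2, chr9:19127553-19127592, minus strand, from 100 to 61 bases before the start: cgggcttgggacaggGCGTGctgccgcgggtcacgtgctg
PPARD, chr6:35342408-35342502, plus strand, from 150 to 56 bases before the start: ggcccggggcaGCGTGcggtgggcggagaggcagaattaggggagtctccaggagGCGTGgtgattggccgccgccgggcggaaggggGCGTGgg
In PPARG a copy of GCGTG lies between 2 copies of AGGTCA. In PPARD 3 of the 4 copies of GCGTG of its promoter are seen, all on the strand of the gene. The PLIN2 stretch lies within the GENCODE span of that gene, and those of PPARG and PPARD lie before the spans of their own genes. Overlap with other annotated genes is not given here. All of these stretches were picked because they hold such letters, so that they share GCGTG is no result. PPARD changed in the opposite direction to PPARG and PLIN2, and the part of these letters was not tested.

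Genes that work with PPAR receptors changed less than PPARG itself. Of 14 partners and coregulators listed, 13 were tested, of which 6 were higher and 2 lower with shAHR#2 (32.6% and 33.2% of all genes tested), and 6 were higher and 1 lower with shAHR#3 (26.9% and 27.5%; median log2 fold changes 0.16 and 0.16). RXRA, the obligate partner of PPARG, was at 74.5 ± 0.627 CPM for pLKO-GFP, 102 ± 3.24 CPM for shAHR#2 and 104 ± 3.81 CPM for shAHR#3 (SD, 3 libraries each) and rose by 0.45 and 0.48 on the log2 scale (edgeR adjusted p = 8.48e-13 and 1.91e-13). The corepressor NCOR1 (0.26 and 0.17), the acetyltransferase EP300 (0.28 and 0.16) and the coactivator PPARGC1A (0.43 and 0.35) also rose with both hairpins.

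The coactivator NCOA1 fell with both (-0.53 and -0.16, edgeR adjusted p = 3.30e-10 and 0.0144). NCOA2 was called higher with shAHR#2 only (0.33), NCOA3 higher with shAHR#3 only (0.25) and PPRC1 lower with shAHR#2 only (-0.14), and each of NCOA2 and NCOA3 differed between the hairpins by the direct test (edgeR adjusted p = 0.0018 and 6.25e-05), whereas PPRC1 did not pass it (adjusted p = 0.123). CREBBP, MED1, PPARGC1B and RXRB were called with neither hairpin, and their log2 fold changes lay between -0.15 and 0.17.

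Among transcription factors of adipocyte differentiation, 10 of 14 were tested, with 6 higher and 2 lower with shAHR#2 (all genes, 32.6% and 33.2%) and 8 higher and 1 lower with shAHR#3 (all genes, 26.9% and 27.5%). CEBPA, which acts with PPARG at adipocyte genes, FABP4 included, had 11, 18 and 9 reads in the control libraries, 68, 69 and 68 with shAHR#2 and 115, 109 and 112 with shAHR#3. The 3 groups did not overlap and stood in the order in which FABP4 did. The log2 fold changes were 2.62 (standard error 0.24) and 3.08 (standard error 0.22, edgeR adjusted p = 2.76e-12 and 8.77e-15), and the hairpins differed by 0.46 (standard error 0.16, edgeR adjusted p = 0.0169). With only 9 reads in 1 control library, CEBPA passed the filter through the AHR-depleted groups, in which it was high, which limits these p-values.

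KLF4 (1.67 and 1.24) and KLF5 (0.65 and 0.71), Krüppel-like factors of early adipogenesis, also rose with both hairpins. GATA2 (0.34 and 0.53) and WNT10B (0.77 and 0.52), which are known to hold adipogenesis back, rose as well, so the factors that rose were not of a single kind. CEBPB was lower with shAHR#2 and higher with shAHR#3 (-0.34 and 0.12, edgeR adjusted p = 1.10e-06 and 0.0454). KLF15, a late adipocyte factor at 1.69 ± 0.288 CPM in the control (SD, n = 3), fell with both (-2.56 and -1.88, edgeR adjusted p = 8.29e-07 and 2.03e-05). It had 5, 7 and 2 reads with shAHR#2 and 6, 10 and 11 with shAHR#3. KLF15 thus passed the filter through the control group, in which it was high, which limits its p-values. GATA2, WNT10B, CEBPB and KLF15 were named after their values were seen.

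Of 30 known PPAR target genes, members of the set left aside, 16 were tested. With shAHR#2, 9 were higher and 1 lower (32.6% and 33.2% of all genes; median log2 fold change 0.39), and with shAHR#3, 8 were higher and 1 lower (26.9% and 27.5% of all genes; median 0.28). PDK4, which restrains glucose oxidation, rose from 7.74 ± 1.57 CPM to 13.9 ± 0.653 and 16.7 ± 0.522 (SD, n = 3 each; log2 fold changes 0.84 and 1.10, edgeR adjusted p = 1.89e-08 and 1.63e-11). ANGPTL4, the inhibitor of lipoprotein lipase, rose by 1.11 and 0.76 (edgeR adjusted p = 9.10e-10 and 4.28e-06), and NR1H3, the oxysterol receptor LXRα, by 0.41 and 1.02 (edgeR adjusted p = 0.00184 and 9.36e-11). Classical targets outside this cell type, ADIPOQ, CIDEA, CYP4A11, FGF21 and PCK1, had no read in any library, so the rise of FABP4 was not accompanied by reads from these.

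Fatty acid uptake and activation had the largest median of the 6 lists in the plot of lists with shAHR#2 (0.59). With shAHR#3 its median was 0.40, below the 0.53 of the adipocyte differentiation factors. Of 26 genes, 17 were tested, with 12 higher and 2 lower with shAHR#2 (all genes, 32.6% and 33.2%) and 12 higher and 1 lower with shAHR#3 (all genes, 26.9% and 27.5%). The endothelial lipase LIPG rose from 12.4 ± 0.303 CPM to 65.1 ± 3.05 and 44.3 ± 1.24 (SD, n = 3 each; log2 fold changes 2.39 and 1.83, edgeR adjusted p = 2.23e-28 and 6.84e-24). VLDLR, a receptor for lipoprotein particles, rose too (1.81 and 1.02). ACSL4, a ligase that favours arachidonic acid, fell (-0.15 and -0.65, edgeR adjusted p = 0.000241 and 1.62e-18). Between the hairpins, 10 genes of this list were lower and 2 higher with shAHR#3 (20.4% and 21.9% of all genes), whereas FABP4 was higher.

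Lipid droplet and lipolysis genes were divided. Of 26 listed, 19 were tested, with 7 higher and 8 lower with shAHR#2 (all genes, 32.6% and 33.2%) and 5 higher and 4 lower with shAHR#3 (all genes, 26.9% and 27.5%; medians -0.10 and -0.09). DGAT2, which makes triglyceride (1.10 and 0.60), and the coat protein PLIN3 (0.33 and 0.17) rose with both hairpins, as did PLIN2 and PNPLA2 above. FITM2, needed for droplet budding (-1.03 and -0.58), ABHD5, the activator of PNPLA2 (-0.12 and -0.22), and the droplet protein AUP1 (-0.11 and -0.15) fell with both. G0S2, the inhibitor of PNPLA2, which was named after its values were seen, rose with shAHR#2 and fell with shAHR#3 (1.09 and -0.31, edgeR adjusted p = 1.63e-16 and 0.000951).

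All 27 genes of fatty acid oxidation were tested, and 14 were higher and 10 lower with shAHR#2 (32.6% and 33.2% of all genes), and 14 higher and 5 lower with shAHR#3 (26.9% and 27.5%; medians 0.10 and 0.11). CPT1B, the carnitine transferase of muscle (0.72 and 0.56), the thiolase ACAA1 (0.65 and 0.44) and the dehydrogenase ACADS (0.35 and 0.62) rose with both. CPT1C, a brain form of the transferase, was at 9.88 ± 0.560 CPM for pLKO-GFP, 1.34 ± 0.0640 CPM for shAHR#2 and 6.76 ± 0.552 CPM for shAHR#3 (SD, 3 libraries each) and fell with both hairpins (log2 fold changes -2.88 and -0.55, edgeR adjusted p = 4.01e-18 and 9.45e-05). ACOX3 (-0.64 and -0.67) and HADH (-0.76 and -0.52) fell as well.

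**Figure D5:**
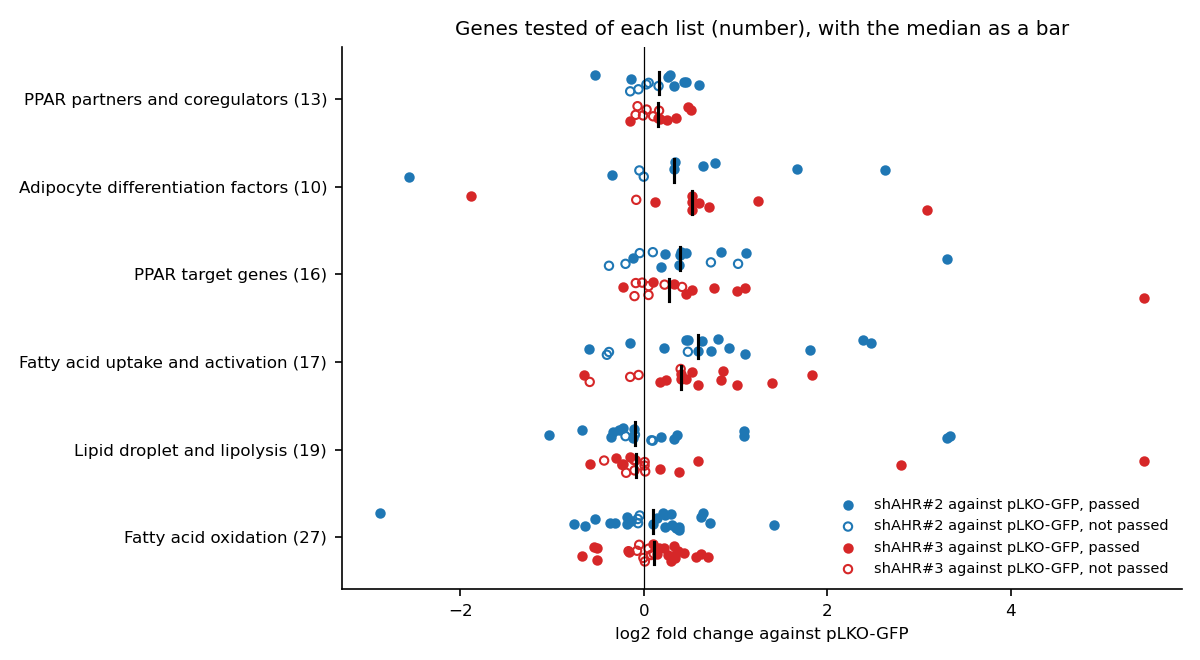
Log2 fold changes against pLKO-GFP of the tested genes of 6 lists (number tested in parentheses), without the 10 genes of the set. Filled points passed an adjusted p of 0.05, open points did not, and a bar marks the median. Fatty acid uptake and activation has medians of 0.59 and 0.40, and lipid droplet and lipolysis is centred near 0. The fitted values of PLIN4, the point farthest right with shAHR#3, rest on 0 to 3 reads per control library.

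The level of each gene was set beside that of FABP4 over the 9 libraries (log2 CPM with a prior count of 2, n = 9). These points share 3 groups of libraries, so the correlations describe the group pattern and carry no test. Pearson's r with FABP4 was 0.974 for PPARG, 0.935 for FABP5, 0.919 for PLIN2, 0.908 for PNPLA2 and 0.978 for CEBPA. It was -0.948 for AHR, -0.852 for PPARD, -0.778 for CD36 and -0.738 for PPARA, and 0.499 for FABP3 and -0.143 for FABP6. Of 11832 genes compared, those with the highest r were ST6GALNAC6, a ganglioside sialyltransferase (0.998), the collagen galactosyltransferase COLGALT2 (0.998), the mannosyltransferase TMTC1 (0.997), the ciliary adaptor TULP3 (0.996) and RP11-395N3.2 (0.996). Their rises were much smaller than that of FABP4. TMTC1 had mean levels of 0.647, 3.90 and 5.51 CPM in the groups pLKO-GFP, shAHR#2 and shAHR#3, and COLGALT2 had 71.1, 133 and 157 CPM.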

How the data were processed

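RNA was measured in 9 libraries of MDA-MB-231 cells, 3 each with pLKO-GFP, shAHR#2 and shAHR#3, grouped by their labels. The authors made stranded mRNA libraries, sequenced single ends on a NextSeq instrument, aligned them to GRCh38.p13 with STAR and deposited raw counts of reads per gene, with no normalization. The submitters' processing notes also name FastQC and featureCounts of Subread. The annotation release and the use of strand are not given in the sources used here, so that overlapping and antisense genes could not be told apart. The study's methods number the hairpins otherwise than the labels, so no target sequence is assigned to either.

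From the counts, genes were kept by filterByExpr (minimum count 10, minimum total count 15; 14274 of 60649) and tested with edgeR 4.0.16 in R 4.3.3 (glmQLFit and glmQLFTest, TMM, 1 mean per group over 9 libraries, no block), with Benjamini-Hochberg adjustment over all genes tested and a threshold of 0.05. Each standard error is the log2 fold change divided by the square root of F. The filter counts the libraries of all groups together, so a gene can pass through the groups in which it is high, as FABP4, CEBPA and PLIN4 did. KLF15 passed through the control group in the same way. The floor was 3 counts per library. Within each group, no library was a copy of another beyond counting noise (chi-square per degree of freedom 1.76 to 4.24). Libraries of different groups were not compared in this way. In simulated data for shAHR#2 against pLKO-GFP with 14274 genes, 77 of 80 genes changed by 2 on the log2 scale, 49 of 51 changed by 1 and 55 of 69 changed by 0.5 were recovered, with 12 false calls. Far fewer genes changed there than in the data, where 65.8% were called for this comparison, so these rates may not carry over. Positions follow GENCODE release 44, in which 60463 of the 60649 identifiers were found, and promoters follow RefSeq.

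The members and the gene lists were chosen with earlier results of these data known. Named were all members, AHR, the tested FABP relatives, PPAR partners and FABP neighbours, from each other list at most 3 genes that rose and 3 that fell with both hairpins (average log2 CPM of at least 1, largest mean change), and the 5 genes most like FABP4 by Pearson's r. Some results that this rule selects are not reported here. Markers named outside this rule (such as LPL, PLIN1, PTPRC, LYZ, KDR and those with no read) were named after their values were seen. For FABP3 and CD36, leaving out libraries in the unfiltered fit was also added after the data were seen. Alternatives were DESeq2 1.42.0, its size factors in edgeR, no filter, a mean of at least 50 counts, only the groups compared, a replicate block, each library left out, an adjusted p under 0.01 and an absolute log2 fold change of at least 1.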

Additional observations from a re-analysis of the deposited data

Results flagged for a closer look

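For 5 genes of the set the levels with the 2 hairpins differed by the direct test (shAHR#3 minus shAHR#2 on the log2 scale, edgeR quasi-likelihood test, Benjamini-Hochberg adjustment). FABP4 was higher with shAHR#3 by 1.40 (adjusted p = 4.16e-14), in all 3 libraries against all 3, and in each of the 9 fits with a library left out the difference lay between 1.36 and 1.47. FABP6 was higher by 1.37 (adjusted p = 0.00891) at 3 to 23 reads per library in those groups, and it passed the filter only with the shAHR#3 libraries. PPARA was higher by 0.27 (adjusted p = 0.000272). PPARD was higher by 0.16 (adjusted p = 0.0325), a call that DESeq2 did not make. PLIN2 was lower, at -0.28 (adjusted p = 9.53e-09). FABP4 and PLIN2, both known PPARG targets, differed between the hairpins in opposite directions. For PPARG the difference was -0.06 (adjusted p = 0.209), and the part of PPARG in the other differences was not tested.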

How the results depend on the processing

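With an absolute log2 fold change of at least 1 also required, the genes called fell to 1691 for shAHR#2 against pLKO-GFP, 961 for shAHR#3 and 530 between the hairpins, and the members called to 3, 1 and 2. Under every other alternative run these counts stayed within 1.5 times of the values reported. With a library left out, 8864 to 9539, 7219 to 7822 and 5349 to 6037 genes were called, and 6 to 7, 6 to 6 and 4 to 5 members. DESeq2 called 8726, 7005 and 5342 genes and 7, 6 and 4 members. No value past the threshold changed direction. Of the refitted fold changes of members, 318 kept their side of the threshold and 8 no longer passed, all of FABP6 or PPARD as given beside those genes; the cause was not tested. The sign changed in 2 values that were not past the threshold, FABP6 with shAHR#3 (-0.13 without pLKO-GFP replicate 3) and PNPLA2 between the hairpins (-0.05 without shAHR#3 replicate 3). The bounds for FABP4 over the libraries left out lay between 44.9 and 47.8 (shAHR#2) and between 118 and 127 (shAHR#3). FABP6 could not be tested at a mean of at least 50 counts, nor for shAHR#2 with only the groups compared.

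With a replicate block 9406, 7844 and 6107 genes and 7, 6 and 5 members were called. Same-numbered libraries correlated at 0.003 to 0.058 (9 pairs) in their deviations from the group means and others at -0.068 to 0.023 (18 pairs). These values were all small and their ranges overlapped, but every same-numbered value was positive. Whether the numbers weakly pair the libraries is therefore not settled, and the block changed no call of a member. Low counts limit FABP3, FABP6 and CD36, and the FABP4 level in the control could not be set below the floor.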
